A study of Mus musculus with 18 samples.

Results

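The hearts described here came from Lmna-/- mice at 1 week and at 2 weeks of age, 3 hearts at each age, 6 of the 18 hearts of the series. They were chosen by genotype and age alone. The mice were homozygous for the targeted allele Lmna tm1Stw on a C57BL/6 background, so every cell of the animal carries the mutation. RNA was taken from entire hearts, 3 hearts for each genotype and age. The study followed Lmna-/- mice and their wild-type (WT) littermates from 1 week to 1 month by RNA sequencing to describe how lamin cardiomyopathy develops. The question asked here was how the Lmna-/- heart itself changed between 1 and 2 weeks, with the 6 WT hearts of the same ages (Lmna+/+ littermates, 3 at each age) used to ask whether the same change occurred without the mutation.

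Lamins A and C, the products of Lmna, are filament proteins that line the inner nuclear membrane and tether chromatin to it. The mouse heart matures quickly after birth. Its muscle cells leave the cell cycle, exchange fetal for adult contractile isoforms, and move from glucose towards fatty acids as fuel. The loss of lamins A and C leads to dilated cardiomyopathy and conduction disease.

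A gene was tested when all 6 Lmna-/- hearts had over 5 counts of it. This held for 12447 of the 47069 genes counted, after genes of the mitochondrial genome and processed pseudogenes had been left out. Levels are CPM, the counts of a gene per unit of TMM-normalized library size over nuclear genes, always listed in the order of replicates 1, 2 and 3. A gene is called up- or down-regulated when the adjusted p of edgeR's quasi-likelihood test (Benjamini-Hochberg over all genes tested) was under 0.05, and log2 fold changes are 2 weeks over 1 week, so that positive values are higher at 2 weeks. The 1-week and 2-week hearts stand in separate count tables, and a difference in age and a difference in how the tables were produced cannot be told apart within Lmna-/- hearts.

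Lmna itself was counted at 25.5, 36.8 and 72.8 CPM at 1 week and 65.8, 44.6 and 44.4 CPM at 2 weeks. The ages overlapped (log2 fold change 0.18, adjusted p = 0.707), and replicate 3 of 1 week was the highest of the 6. Scaled by library size alone, the Lmna-/- hearts had 26.7 to 78.0 CPM of Lmna against 115.5 to 143 CPM in the 6 WT hearts, so every Lmna-/- heart lay below every WT heart. The gene lies at chr3:88480147-88509956 (GRCm38, minus strand). The counts cover the whole gene, and reads from parts of it that the targeted allele leaves in place would be counted here.

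The 6 hearts had 9344185 to 27014830 counts, of which 3483800 to 14293504 lay on the nuclear genes kept, and the shallowest library was replicate 1 of 1 week. The mitochondrial genome took 43.7% to 62.7% of counts at 1 week and 65.8% to 70.0% at 2 weeks. Most of these were counts of the ribosomal RNA mt-Rnr2, with 32.4% to 47.1% of all counts at 1 week and 51.4% to 55.0% at 2 weeks. Counts also ran less steeply with GC content at 2 weeks (Spearman -0.062 to -0.046 over genes) than at 1 week (-0.170 to -0.128), and calls that a fit with a GC trend removed from each library ended are given beside the gene. Cardiomyocyte markers (Myh6, Tnnt2, Ttn and 5 others) summed to 80313 to 108882 CPM at 1 week and 102382 to 131649 CPM at 2 weeks, while lymphocyte and thymocyte markers each summed to at most 6.93 CPM in any heart and Ptcra, a thymocyte gene, had no count.

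Individual hearts stood apart in what else they held. Replicate 2 of 1 week had the most transcripts of other tissues, with 209 CPM of the airway gene Scgb1a1, 49.9 CPM of the liver gene Alb, 277 CPM of the skeletal muscle gene Myh8 and 114 CPM of the brown fat gene Ucp1. Replicate 3 of 1 week held some of them, with 46.8 CPM of Scgb1a1, 9.11 CPM of Myh8 and 63.7 CPM of Ucp1. In the other 4 hearts Scgb1a1 was at most 0.275 CPM, Alb 0.139 CPM, Myh8 2.47 CPM and Ucp1 15.5 CPM. Transcripts of atrial genes differed within both ages: Bmp10, an atrial ligand, was at 6.04, 238 and 0.441 CPM at 1 week and 12.5, 460 and 384 CPM at 2 weeks. Scaled by library size alone, Xist, the RNA of the inactive X chromosome, was at 528 CPM in 1 heart of 2 weeks and at most 1.56 CPM in the other 5, so the ages differed in it by 1 heart. Replicate 1 of 1 week was shifted towards the 2-week hearts in its cell cycle genes. For many lists the counts with single hearts left out are given beside them, and for others in the closing section.

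Between 1 and 2 weeks 3971 of the 12447 genes (31.9%) changed in Lmna-/- hearts, 2056 of them up (16.5%) and 1915 down (15.4%). At least a 2-fold change was seen for 559 of the up-regulated and 615 of the down-regulated genes, and the median of all 12447 log2 fold changes was -0.00464. The values of the 3 hearts of 1 age lay wholly above or below those of the other age for 5831 genes (46.8%). Scaling by library size alone put the median of all genes at -0.22 and gave 1201 genes up and 3670 down, so small changes depend on the scaling. With the GC trend removed, 1852 genes of 12419 (14.9%) were up and 1607 (12.9%) down, and 2888 genes were called in the same direction in both fits. Leaving out 1 of the 6 hearts gave 1208 (without replicate 1 of 2 weeks) to 2555 (without replicate 1 of 1 week) genes up and, for the same hearts, 1016 to 2458 down. The plot of list members by log2 fold change shows where the large changes lay.

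**Figure D1:**
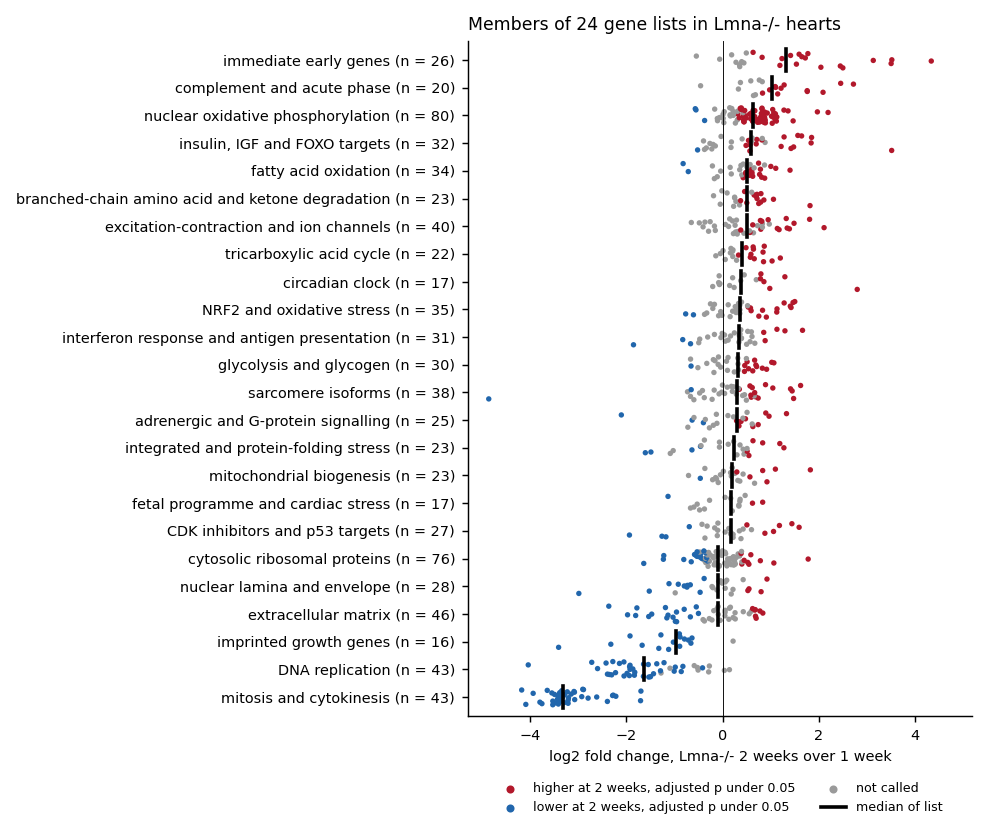
Log2 fold change between 2 weeks and 1 week (x axis) of each tested member of 24 gene lists (y axis, with the number of members tested) in Lmna-/- hearts, 3 hearts at each age. Points are genes, coloured by their call, and bars are list medians. All 43 mitosis genes lie to the left with a median of -3.33, while immediate early genes have the highest median, 1.33.

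The genes of mitosis fell most. All 43 mitosis and cytokinesis genes that passed the count filter, of 45 listed, were down-regulated, with a median log2 fold change of -3.33 (range -4.18 to -1.70) against -0.00464 over all genes, and in none did the ages overlap. Over all genes 15.4% were down and 46.8% had no overlap between ages. The other 2 listed genes, Ttk and Kif2c, had 5 and 4 counts in their lowest heart. Cdk1, the kinase that drives entry into mitosis, was at 23.6, 57.2 and 86.9 CPM at 1 week and 4.62, 5.82 and 4.27 CPM at 2 weeks (log2 fold change -3.53, SE 0.44, adjusted p = 0.000997), an 11.6-fold decrease. Its partner Ccnb1, cyclin B1, was at 18.1, 50.6 and 89.6 CPM at 1 week and 1.77, 4.99 and 2.67 CPM at 2 weeks (log2 fold change -4.09, SE 0.59, adjusted p = 0.00173). Both were lower in each 2-week heart than in any 1-week heart, and within 1 week both were lowest in replicate 1 and highest in replicate 3.

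The same order of hearts ran through the list. Ccna2, cyclin A2, stood at 35.4, 101 and 158 CPM at 1 week and 6.11, 8.73 and 7.21 CPM at 2 weeks (log2 fold change -3.76), and Top2a, the topoisomerase that untangles chromosomes, at 99.7, 307 and 464 CPM at 1 week and 20.1, 43.4 and 21.1 CPM at 2 weeks (log2 fold change -3.37). Mki67, the proliferation marker Ki-67, went from 219.6, 503 and 655 CPM to 53.4, 85.5 and 59.9 CPM (log2 fold change -2.80). The mitotic kinases Plk1 (log2 fold change -3.21), Aurka (-3.49) and Aurkb (-3.29) fell as well. Among the 8 largest decreases without overlap of ages in protein-coding genes at 5 CPM or more were Hmmr, a spindle-associated protein (log2 fold change -4.18), Cdca8, the borealin of the chromosomal passenger complex (-3.94), Knstrn, a kinetochore protein (-4.16), the kinesin Kif14 (-3.87) and Arhgap11a (-3.83). In CPM these 5 genes were at or under 5.55 in every 2-week heart. Without replicate 1 of 1 week the list median was -3.65 and without replicate 3 it was -2.87, with all 43 called either way.

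Promoter sequence is given for 4 of these kinases and cyclins because shared promoter letters can be read beside a shared fall. RefSeq windows (GRCm38.p6) from 250 bases before to 50 bases after the annotated start were at hand for 37 of the 43 genes, 39 windows in all. The letters CCAAT, on either strand, were in 31 of the 39 windows (79.5%), against 37.4% of all 32851 mouse windows and 37.3% of the 12288 windows of genes tested here. The letters TTTGAA, the core of the cell cycle gene homology region, were in 29 (74.4%) against 17.9% and 11.9%, and TTCGAA in 4 (10.3%) against 1.56% and 1.99%. TTCCCGC, an E2F-type site, was in 1 (2.56%) against 4.6% and 8.13%. The 160 bases before the start of each gene follow, 5′ to 3′ on the strand of the gene and from the same build, at chr10:69352913-69353072, minus strand for Cdk1, chr13:100786487-100786646, minus strand for Ccnb1, chr7:122159275-122159434, plus strand for Plk1 and chr2:172370571-172370730, minus strand for Aurka, in lower case with every match to these motifs on either strand in capitals (ATTGG is CCAAT read on the other strand).
Cdk1: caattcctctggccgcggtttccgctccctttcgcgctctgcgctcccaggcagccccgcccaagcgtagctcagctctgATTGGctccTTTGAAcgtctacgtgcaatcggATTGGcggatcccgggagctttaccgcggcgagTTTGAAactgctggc
Ccnb1: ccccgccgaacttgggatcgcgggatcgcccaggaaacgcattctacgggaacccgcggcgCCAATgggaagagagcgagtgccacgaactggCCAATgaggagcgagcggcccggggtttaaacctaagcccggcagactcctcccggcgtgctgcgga
Plk1: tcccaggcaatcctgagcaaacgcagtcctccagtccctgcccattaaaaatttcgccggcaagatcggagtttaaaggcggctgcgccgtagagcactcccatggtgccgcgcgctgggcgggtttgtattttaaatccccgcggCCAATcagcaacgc
Aurka: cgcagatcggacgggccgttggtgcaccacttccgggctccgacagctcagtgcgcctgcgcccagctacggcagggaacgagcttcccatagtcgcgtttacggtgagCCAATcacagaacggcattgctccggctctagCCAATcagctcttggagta
Cdk1 held 4 such matches, Ccnb1 and Aurka 2 each and Plk1 1. A match describes letters in a window, and binding of any factor was not measured.

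DNA replication genes fell less and less uniformly. Of 45 listed, 43 were tested, 34 were down-regulated and none was up-regulated, with a median log2 fold change of -1.64. Of all genes 15.4% were down. Rrm2, the regulated subunit of ribonucleotide reductase, was at 31.6, 90.5 and 180.05 CPM at 1 week and 4.75, 7.76 and 6.01 CPM at 2 weeks (log2 fold change -4.04, SE 0.58, adjusted p = 0.00168) and was also among those 8, and its partner Rrm1 fell less (-1.92, adjusted p = 0.00382). Of the replicative helicase, Mcm5 was at 14.8, 46.01 and 51.7 CPM at 1 week and 7.20, 12.8 and 8.01 CPM at 2 weeks (log2 fold change -2.05, SE 0.41, adjusted p = 0.00696). Mcm2 was at 18.7, 55.7 and 70.1 CPM at 1 week and 16.98, 20.9 and 13.1 CPM at 2 weeks, so that replicate 1 of 1 week lay among the 2-week hearts, and its call (log2 fold change -1.53, adjusted p = 0.0192) held in 2 of the 6 fits that left out 1 heart. The checkpoint kinase Chek1 (-2.72), the primase subunit Prim1 (-2.60) and cyclin E1, Ccne1 (-2.42), also fell. The number of called members ran from 22 without replicate 1 of 2 weeks to 41 without replicate 1 of 1 week. Promoter windows were at hand for 29 of the 34 called genes, 33 windows in all. TTCCCGC was in 14 (42.4%) against 4.6% of all windows and 8.13% of those of genes tested, CCAAT in 17 (51.5%) against 37.4% and 37.3%, and TTTGAA in 6 (18.2%) against 17.9% and 11.9%.

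Whether the fall was particular to the mutant was asked with the WT hearts of the same tables, in a fit over all 12 hearts. WT hearts lost mitosis transcripts as well, 41 of 43 called lower (17.5% of 12188 genes were), with a median log2 fold change of -1.45 where Lmna-/- hearts had -3.35. Relative to the mean of the 12 hearts, the list median of log2(CPM + 0.5) was -0.18, 1.27 and 1.82 in Lmna-/- hearts and 1.37, 0.88 and 1.28 in WT hearts at 1 week. At 2 weeks it was -2.20, -1.54 and -2.07 in Lmna-/- hearts and -0.26, 0.01 and -0.34 in WT hearts, so that the genotypes overlapped at 1 week and separated at 2 weeks. The difference between the 2 age changes (the interaction of genotype and age) had a median of -1.89 on the log2 scale. It had an unadjusted p under 0.05, in the direction of a larger fall in Lmna-/- hearts, for 40 of the 43 genes, against 4.89% of all genes in that direction. After adjustment none of the 43 passed in edgeR's test and 9 passed in DESeq2's. With replicate 1 of 1 week (Lmna-/-) left out, 38 of the 43 passed in edgeR's test. With any other 1 of the 12 hearts left out none passed. Without the filter on counts 36 members passed, and with the GC trend removed none did. For Cdk1 the log2 fold change in WT was -1.75 (adjusted p = 0.00183), and the difference of -1.81 did not pass adjustment in edgeR's test (adjusted p = 0.295). For DNA replication 28 of 43 were called lower in WT with a median of -0.92. A smaller share of dividing cells and less of these transcripts per cell cannot be told apart in whole-heart RNA.

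**Figure D2:**
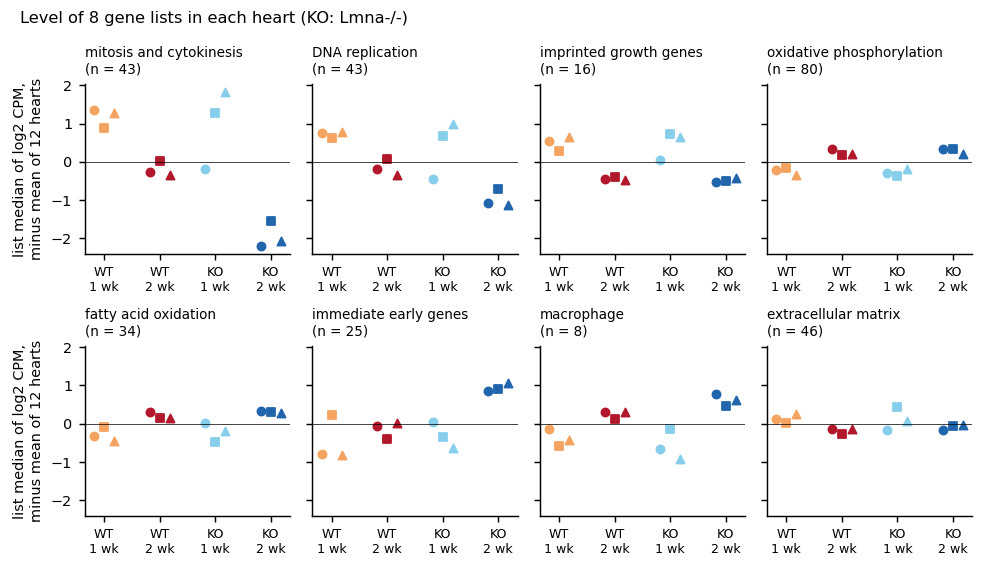
Level of 8 gene lists in each of 12 hearts: the list median of log2(CPM + 0.5) minus the mean of the 12 hearts (y axis), for WT and Lmna-/- (KO) hearts at 1 and 2 weeks (x axis), with circles, squares and triangles for replicates 1, 2 and 3. For mitosis genes the Lmna-/- hearts of 2 weeks lie lowest and replicate 1 of the 1-week Lmna-/- hearts lies at -0.18, near the WT hearts of 2 weeks.

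Of the 27 cyclin-dependent kinase inhibitors and p53 targets tested, 6 were up- and 4 down-regulated (median 0.17, or -0.05 with library size alone), and without replicate 1 of 2 weeks 3 and 1. Of all genes 16.5% were up and 15.4% down. Cdkn1a, which encodes p21, was at 18.1, 40.8 and 32.7 CPM at 1 week and 53.4, 30.6 and 39.2 CPM at 2 weeks, with overlapping ages and a log2 fold change of 0.38 (adjusted p = 0.33). Cdkn1b had -0.37 (adjusted p = 0.12) and Cdkn1c 0.22 (adjusted p = 0.342). The antiproliferative gene Btg2 (1.59) and the stress kinase Plk3 (1.44) rose, and the pocket protein Rbl1, p107, fell (-1.94).

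Contractile genes showed the exchange of isoforms most plainly in troponin I. Tnni1, the slow skeletal and fetal isoform, was at 247, 369 and 586 CPM at 1 week and 8.29, 20.7 and 12.4 CPM at 2 weeks (log2 fold change -4.86, SE 0.41, adjusted p = 0.000234), the largest decrease of any protein-coding gene named by the rule. Tnni3, the adult cardiac isoform, was at 1814, 1482 and 1591 CPM at 1 week and 4575, 4689 and 4364 CPM at 2 weeks (log2 fold change 1.48, SE 0.14, adjusted p = 0.000384), a 2.79-fold increase. No heart of 1 age overlapped the other in either gene. Per kilobase of exon the mean level of Tnni1 went from 111 to 3.83 CPM and that of Tnni3 from 789.7 to 2202 CPM. The change was present in WT hearts in the same tables, at -4.74 for Tnni1 and 1.11 for Tnni3 on the log2 scale, and the differences of -0.14 (edgeR adjusted p = 0.969) and 0.35 (adjusted p = 0.55) did not pass the test.

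Over the 38 sarcomere genes tested, 14 were up- and 2 down-regulated (median 0.31), where 16.5% of all genes were up and 15.4% down. Without replicate 1 of 2 weeks 9 were up, and without replicate 1 of 1 week 9 were down. Myoz2, a Z-disc protein that binds calcineurin, went from 679, 421 and 493 CPM to 1725, 1524 and 1659 CPM (log2 fold change 1.62), and the tropomyosin Tpm1 from 5658, 4876 and 4975 CPM to 14672, 13913 and 13761 CPM (1.45). The titin cap protein Tcap had a log2 fold change of 1.42 and cardiac troponin T, Tnnt2, 0.74 (adjusted p = 0.00918). Cardiac actin, Actc1, was called at 0.69 (adjusted p = 0.0429) but in none of the fits that left out 1 heart and not with the GC trend removed (adjusted p = 0.0715). The adult myosin heavy chain Myh6 was at 30865, 24707 and 25009.7 CPM at 1 week and 40794, 32572 and 40334 CPM at 2 weeks, and its log2 fold change of 0.50 did not pass the test (adjusted p = 0.108). The fetal myosin heavy chain Myh7 was at 85.7, 94.3 and 186 CPM at 1 week and 100.4, 62.8 and 79.3 CPM at 2 weeks, with overlapping ages and a log2 fold change of -0.60 (adjusted p = 0.15). In WT hearts Myh7 fell by 2.15 on the log2 scale (adjusted p = 0.000201), and the difference of 1.54 between genotypes did not pass adjustment (edgeR adjusted p = 0.256). The atrial light chain Myl4 was at 129.6, 567 and 185 CPM at 1 week and 58.01, 518 and 644 CPM at 2 weeks, highest in the 3 hearts that had the most Bmp10 counts.

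Of the genes of the fetal programme and of cardiac stress 2 of 17 were up and 1 down (median 0.17, or -0.05 with library size alone), where 16.5% of all genes were up and 15.4% down. The natriuretic peptide gene Nppa was at 43.9, 303 and 128 CPM at 1 week and 19.02, 238 and 299.7 CPM at 2 weeks, again highest in the 3 hearts with the most Bmp10 counts (adjusted p = 0.876). Nppb, the other natriuretic peptide, was at 39.3, 81.8 and 129 CPM at 1 week and 44.6, 67.1 and 70.3 CPM at 2 weeks (log2 fold change -0.48, adjusted p = 0.333). Skeletal actin, Acta1, ranged from 12.4 to 284 CPM within 1 week alone. The called members were Postn, a matrix protein of activated fibroblasts, which fell (-1.13), and the small heat shock protein Hspb1 (0.84) and the LIM protein Fhl2 (0.62), which rose. Without replicate 1 of 1 week 5 members were called lower.

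Nuclear genes of oxidative phosphorylation rose broadly. Of 80 tested, 58 were up-regulated and 3 down-regulated, with a median log2 fold change of 0.62, and 65 had no overlap between ages. Of all genes 16.5% were up and 46.8% had no overlap. Muscle isoforms of cytochrome c oxidase, complex IV of the respiratory chain, had 3 of the 4 largest rises. Cox6a2 was at 256, 226 and 268 CPM at 1 week and 1252, 1102 and 1083 CPM at 2 weeks (log2 fold change 2.20, SE 0.13, adjusted p = 5.18e-05), a 4.58-fold increase. Cox7a1 was at 146, 116 and 136 CPM at 1 week and 574, 496 and 489.6 CPM at 2 weeks (log2 fold change 1.97, SE 0.13, adjusted p = 7.92e-05), and Cox8b went from 175, 129 and 133 CPM to 409, 366 and 347 CPM (1.36). Of their ubiquitous counterparts, Cox6a1 was at 74.1, 135 and 116 CPM at 1 week and 128, 183 and 129.9 CPM at 2 weeks (log2 fold change 0.43, adjusted p = 0.171), Cox7a2 had 0.04 (adjusted p = 0.83) while Cox8a rose by 0.66 (adjusted p = 0.0235), a call that held in 3 of the 6 fits that left out 1 heart and not with the GC trend removed (adjusted p = 0.12). The 3 muscle isoforms kept their calls without any 1 of the 6 hearts, with adjusted p at most 0.00457.

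Of the subunits of complex I 29 of 37 were up-regulated and 1 down (median 0.71), where 16.5% of all genes were up and 15.4% down. Of those of the ATP synthase 11 of 16 were up and 2 down (median 0.40). Ndufa13, a subunit of complex I, was at 193, 188 and 197 CPM at 1 week and 551, 540.2 and 509 CPM at 2 weeks (log2 fold change 1.47, SE 0.10, adjusted p = 8.49e-05). Ndufs7, which carries an iron-sulphur cluster, had a log2 fold change of 1.13, Ndufv1 0.67 and Ndufa12 1.12. Uqcr11 of complex III (1.10) and Atp5d of the ATP synthase (1.28) rose as well. The 3 members that fell were Atp5e (-0.55, adjusted p = 0.00425) and Atp5j (-0.57, adjusted p = 0.0171) of the ATP synthase and Ndufb2 of complex I (-0.37, adjusted p = 0.0358). The call of Atp5j held in 3 and that of Ndufb2 in 1 of the 6 fits that left out 1 heart, and that of Ndufb2 not with the GC trend removed (adjusted p = 0.145). Removing the GC trend lowered some of these values, that of Ndufa13 to 1.13 (adjusted p = 0.000435), and left 56 members called higher. WT hearts had 55 of 80 members higher (16.8% of all genes were) and a median of 0.47, and no member passed the adjusted test of the difference between genotypes, where 7 had an unadjusted p under 0.05 in the direction of a higher change in Lmna-/- hearts, against 4.03% of all genes.

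**Figure D3:**
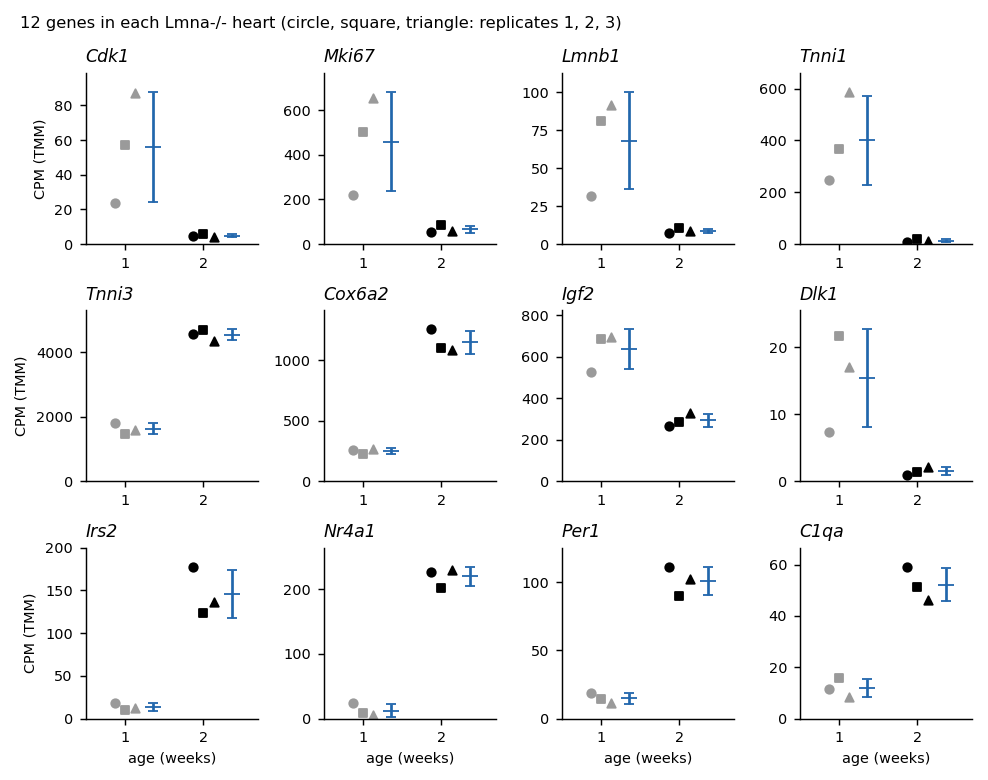
CPM (y axis, from 0) of 12 genes in each Lmna-/- heart at 1 and 2 weeks (x axis, with symbols for replicates 1, 2 and 3). Blue bars are mean ± SD of 3 hearts. In all 12 genes the 2-week hearts lie apart from the 1-week hearts, and in Cdk1, Mki67 and Lmnb1 replicate 1 of 1 week lies nearest to the 2-week hearts.

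Fatty acid oxidation genes rose in part. Of 34 tested, 18 were up- and 2 down-regulated (median 0.52), where 16.5% of all genes were up and 15.4% down. Ech1, an auxiliary enzyme of mitochondrial beta-oxidation, went from 566, 309 and 386 CPM to 1235, 1030.02 and 1067 CPM (log2 fold change 1.41, SE 0.21, adjusted p = 0.00216). Fabp3, the fatty acid carrier of heart muscle, was at 1855, 1569.6 and 1843 CPM at 1 week and 3177, 3177 and 2747 CPM at 2 weeks (log2 fold change 0.79, SE 0.14, adjusted p = 0.00404). The importer Slc27a1 (1.11), the lipid droplet protein Plin5 (1.01) and the electron transfer enzyme Etfdh (0.61) were also up-regulated. The carnitine palmitoyltransferase Cpt1a had -0.17 (adjusted p = 0.371), and Cpt1b, the muscle form, had 1 to 31 counts and was not tested. The authors' counting excluded reads in ambiguous regions, and the effect of that on the counts of Cpt1b was not tested. The receptor gene Ppara had 0.51 (adjusted p = 0.144).

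Target genes of fasting and PPAR signalling varied between hearts of 1 week. Pdk4, which holds pyruvate out of the tricarboxylic acid cycle, was at 1521, 291 and 417 CPM at 1 week and 1284, 1079.9 and 1707 CPM at 2 weeks, and Ucp3, a mitochondrial carrier, was at 128, 29.5 and 50.7 CPM at 1 week and 75.8, 91.5 and 93.8 CPM at 2 weeks. In both genes replicate 1 of 1 week lay in or above the 2-week range while replicates 2 and 3 lay below it, and neither was called (adjusted p = 0.241 for Pdk4 and 0.533 for Ucp3). The number of fatty acid oxidation genes called higher ran from 11 without replicate 1 of 2 weeks to 26 without replicate 1 of 1 week. The letters AAGGTCA, a half-site of oestrogen-related receptors, were in 1 of 19 windows of called fatty acid oxidation genes (5.26%) and in 4 of 51 windows of called oxidative phosphorylation genes (7.84%), against 4.72% of all windows and 3.06% of those of genes tested.

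The tricarboxylic acid cycle list had 12 of 22 members up and none down (median 0.41), where 16.5% of all genes were up and 15.4% down. Idh3g, a subunit of isocitrate dehydrogenase, had a log2 fold change of 1.20 and citrate synthase Cs 0.85, and in both the ages did not overlap. Degradation of branched-chain amino acids and ketones gave 13 of 23 up and none down (median 0.51), with 8 up without replicate 1 of 2 weeks. Bckdha, the catalytic subunit that commits branched-chain keto acids to breakdown, was at 20.9, 9.83 and 10.9 CPM at 1 week and 52.2, 35.8 and 50.3 CPM at 2 weeks (log2 fold change 1.82, SE 0.28, adjusted p = 0.00226), and Bckdk, the kinase that inhibits it, rose too (0.75). Oxct1, which activates ketone bodies, was at 191, 429 and 457 CPM at 1 week and 536, 588 and 522 CPM at 2 weeks; its log2 fold change of 0.61 did not pass the test (adjusted p = 0.127).

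Of the glycolysis and glycogen genes 12 of 30 were up and 1 down (median 0.32), with 7 up without replicate 1 of 2 weeks. Slc2a4, the insulin-responsive glucose transporter GLUT4, was at 84.6, 96.2 and 86.9 CPM at 1 week and 181, 199 and 183 CPM at 2 weeks (log2 fold change 1.07, SE 0.10, adjusted p = 0.000345), whereas Slc2a1, the fetal transporter GLUT1, had 2.20 to 12.9 CPM with overlapping ages (adjusted p = 0.6). The muscle glycogen phosphorylase Pygm (1.02) and pyruvate kinase Pkm (0.69) rose, and hexokinases Hk1 (-0.18, adjusted p = 0.382) and Hk2 (0.25, adjusted p = 0.182) were not called. Among regulators of mitochondrial biogenesis 6 of 23 were up and 1 down (median 0.20, or -0.01 with library size alone). Of all genes 16.5% were up and 15.4% down. Esrra, an oestrogen-related receptor that activates respiratory genes, went from 45.6, 50.8 and 51.5 CPM to 99.4, 102 and 80.7 CPM (log2 fold change 0.93, SE 0.12, adjusted p = 0.00114). Its coactivator Ppargc1a was at 259, 226 and 161 CPM at 1 week and 517, 222 and 285 CPM at 2 weeks and was not called (adjusted p = 0.121). The mitochondrial creatine kinase Ckmt2 (1.83) and the ATP-ADP carrier Slc25a4 (1.10) had the largest rises of that list.

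Of the channel and calcium-handling genes, 15 of 40 were up and none down (median 0.50), where 16.5% of all genes were up and 15.4% down. The count of those up was 13 without replicate 3 of 1 week to 23 without replicate 1 of 1 week, and library size alone put 4 members down. Kcnd3 and Kcnd2, pore subunits of the transient outward potassium current, rose together. Kcnd3 was at 5.22, 3.53 and 1.76 CPM at 1 week and 17.1, 11.2 and 15.1 CPM at 2 weeks (log2 fold change 2.11, SE 0.33, adjusted p = 0.00241) and Kcnd2 at 26.4, 13.1 and 16.7 CPM at 1 week and 54.5, 38.3 and 44.04 CPM at 2 weeks (log2 fold change 1.35, SE 0.25, adjusted p = 0.00471), without overlap of ages in either. S100a1, a calcium sensor that acts on the ryanodine receptor, was at 109.5, 104 and 119.5 CPM at 1 week and 414, 378 and 376 CPM at 2 weeks (log2 fold change 1.81, SE 0.11, adjusted p = 5.18e-05), and the pacemaker channel gene Hcn2 (1.49) and the caveolin Cav3 (0.82) were up-regulated. The ryanodine receptor Ryr2 (0.31, adjusted p = 0.279), the calcium pump Atp2a2 (0.23, adjusted p = 0.492) and the L-type channel Cacna1c (0.27, adjusted p = 0.419) were not called. In these 3 genes replicate 1 of 1 week (for Atp2a2, 11899 CPM) lay above all of the 2-week hearts. In WT hearts Kcnd3 and Kcnd2 had log2 fold changes of 1.80 and 1.68.

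For adrenergic and G-protein signalling 10 of 25 genes were up and 3 down (median 0.29). With the GC trend removed these were 5 and 4, and with library size alone 3 and 7. Of all genes 16.5% were up and 15.4% down, and with the GC trend removed 14.9% and 12.9%. Leaving out replicate 3 of 1 week or any 1 heart of 2 weeks left 4 up. The beta-1 receptor gene Adrb1 was at 22.8, 17.4 and 17.04 CPM at 1 week and 11.7, 16.6 and 18.3 CPM at 2 weeks and was not called (adjusted p = 0.329). The muscarinic receptor Chrm2 (0.97) and the regulator of G-protein signalling Rgs2 (1.33) rose, and the fetal angiotensin receptor Agtr2 fell (-2.11) from 3.84, 8.10 and 5.87 CPM to 0.951, 1.66 and 1.73 CPM.

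Of 46 matrix genes tested, 17 were down- and 7 up-regulated (median -0.10), where 15.4% of all genes were down and 16.5% up. Fbn2, a fibrillin of developing tissue, was at 129.9, 213 and 203 CPM at 1 week and 67.8, 57.9 and 63.4 CPM at 2 weeks (log2 fold change -1.53, SE 0.18, adjusted p = 0.000802), and fibronectin, Fn1, at 757, 1410.4 and 1018 CPM at 1 week and 448, 532 and 582 CPM at 2 weeks (log2 fold change -1.03, SE 0.22, adjusted p = 0.0084). Cthrc1, a secreted protein of collagen-producing cells (-2.37), the proteoglycan link protein Hapln1 (-1.78) and the crosslinking enzyme Lox (-1.47) also fell. Elastin, Eln, was at 580.4, 3339 and 2164 CPM at 1 week and 349, 573 and 818 CPM at 2 weeks, highest in replicate 2 of 1 week and with replicate 1 inside the 2-week range. It was called (adjusted p = 0.0353) but in 1 of the 6 fits that left out 1 heart. Type I collagen fell, Col1a1 from 1189.8, 2379.96 and 1522 CPM to 696, 946 and 987 CPM (log2 fold change -0.95, adjusted p = 0.0208), while decorin, Dcn, rose from 773, 615 and 575 CPM to 1109, 1218 and 1183 CPM (0.84, adjusted p = 0.00322). The number of matrix genes called lower ran from 6 without replicate 1 of 2 weeks to 19 without replicate 1 of 1 week, and that of genes called higher from 4 without replicate 2 of 2 weeks to 10 without replicate 2 of 1 week. Of 8 fibroblast markers 2 rose and 2 fell, and their sum was 6759 to 9883 CPM at 1 week and 6408 to 7755 CPM at 2 weeks. The marker Gsn, gelsolin, stood out with 254, 264 and 216 CPM at 1 week and 923, 910.1 and 1113 CPM at 2 weeks (log2 fold change 2.00, SE 0.14, adjusted p = 8.52e-05).

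Imprinted growth genes fell almost without exception. Of 16 tested, 15 were down-regulated and none up, with a median log2 fold change of -0.96, where 15.4% of all genes were down. Igf2, the fetal growth factor, was at 528, 688 and 696 CPM at 1 week and 265, 287 and 329 CPM at 2 weeks (log2 fold change -1.12, SE 0.14, adjusted p = 0.00116), and H19, the RNA beside it on the same chromosome, at 231, 621 and 521 CPM at 1 week and 147, 196 and 207 CPM at 2 weeks (log2 fold change -1.33, SE 0.32, adjusted p = 0.0139). Dlk1, a membrane protein of progenitor cells, was at 7.41, 21.7 and 17.04 CPM at 1 week and 0.951, 1.39 and 2.14 CPM at 2 weeks (log2 fold change -3.41, SE 0.44, adjusted p = 0.00114), a 10.6-fold decrease. Mest (-2.32), Zim1 (-1.92) and Rian (-1.67), the last 1 of the RNAs of the Dlk1 locus, fell as well. The exception was Cdkn1c, whose values overlapped. The number called ran from 9 without replicate 1 of 2 weeks to 16 without replicate 1 of 1 week. In WT hearts 13 of 16 fell with a median of -1.01, where 17.5% of all genes fell. No member passed the test of a difference between genotypes.

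Among 28 genes of the nuclear lamina and envelope 10 fell and 4 rose (median -0.10). The number that fell was 4 to 6 without replicate 3 of 1 week or any 1 heart of 2 weeks, and of all genes 15.4% fell and 16.5% rose. Lmnb1, the B-type lamin B1, was at 31.8, 81.2 and 91.5 CPM at 1 week and 7.34, 10.4 and 8.41 CPM at 2 weeks (log2 fold change -2.99, SE 0.36, adjusted p = 0.000949), a 7.94-fold decrease, and its order of hearts at 1 week was that of the mitosis genes. Lmnb2, lamin B2, was at 8.24, 20.2 and 21.3 CPM at 1 week and 7.47, 12.2 and 6.41 CPM at 2 weeks, with overlapping ages (log2 fold change -0.98, adjusted p = 0.0625, or 0.0274 with the GC trend removed). Tmpo, which encodes the lamina-associated LAP2 proteins, fell from 133, 189 and 258 CPM to 59.9, 72.9 and 69.5 CPM (-1.52), and the pore protein Nup210 fell too (-1.11). Emd, emerin, an inner membrane partner of lamin A, rose from 20.9, 26.1 and 23.4 CPM to 48.2, 43.8 and 32.03 CPM (log2 fold change 0.80, SE 0.17, adjusted p = 0.00889), and Plpp7, a muscle nuclear envelope protein, rose (0.93). Lbr, the lamin B receptor, was called at -0.47 (adjusted p = 0.0346), in 1 of the fits that left out 1 heart and not with the GC trend removed (adjusted p = 0.123). In WT hearts Lmnb1 fell by 2.05 on the log2 scale, and the difference from Lmna-/- hearts did not pass the test (-0.96, edgeR adjusted p = 0.562).

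The second large movement was in genes of acute signalling. Of 26 immediate early genes tested, 17 were up-regulated and none down, with a median log2 fold change of 1.33, where 16.5% of all genes were up. These genes answer growth factors, stretch, stress and handling within minutes. Nr4a1, an orphan nuclear receptor, was at 23.9, 7.97 and 5.14 CPM at 1 week and 227, 203 and 231 CPM at 2 weeks (log2 fold change 4.34, SE 0.43, adjusted p = 0.000431), the largest rise named by the rule. Its relatives Nr4a3, at 3.84, 11.5 and 2.35 CPM at 1 week and 106, 70.4 and 59.4 CPM at 2 weeks (log2 fold change 3.52, SE 0.46, adjusted p = 0.00125), and Nr4a2, at 4.39, 4.11 and 4.11 CPM at 1 week and 42.4, 32.7 and 35.4 CPM at 2 weeks (log2 fold change 3.14, SE 0.16, adjusted p = 3.36e-05), rose with it. Atf3, a stress-induced transcription factor, was at 8.24, 6.36 and 9.25 CPM at 1 week and 87.3, 108 and 68.9 CPM at 2 weeks (log2 fold change 3.51, SE 0.22, adjusted p = 6.25e-05). In each of these 4 genes every 2-week heart lay above every 1-week heart.

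The AP-1 factors were less uniform. Fosl2 was at 53.3, 56.2 and 48.9 CPM at 1 week and 238, 232 and 185 CPM at 2 weeks (log2 fold change 2.05, SE 0.13, adjusted p = 6.25e-05) and Junb at 15.6, 8.29 and 5.14 CPM at 1 week and 42.8, 50.05 and 55.7 CPM at 2 weeks (log2 fold change 2.45, SE 0.31, adjusted p = 0.00108). Fos was at 35.96, 5.21 and 2.20 CPM at 1 week and 31.9, 68.5 and 104 CPM at 2 weeks, with replicate 1 of 1 week inside the 2-week range, and its call (adjusted p = 0.0462) held in 1 of the 6 fits that left out 1 heart and not with the GC trend removed (adjusted p = 0.0677). Without that replicate its log2 fold change was 4.05 in place of 2.50. Egr1 was at 73.8, 19.9 and 11.01 CPM at 1 week and 26.5, 40.8 and 58.2 CPM at 2 weeks and was not called (adjusted p = 0.679). In WT hearts 3 of 25 such genes rose, with a median of 0.18, where 16.8% of all genes rose. The WT hearts of 1 week disagreed. On the scale used for the mitosis genes, the list level in WT was -0.79, 0.22 and -0.81 at 1 week. At 2 weeks it was -0.06, -0.40 and 0.02 in WT and 0.86, 0.91 and 1.06 in Lmna-/- hearts. WT replicate 2 of 1 week lay above every WT heart of 2 weeks, and replicates 1 and 3 lay below them all. The WT median therefore does not show that these genes were level in WT.

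Genes of insulin, IGF and FOXO signalling rose in 16 of 32 cases and fell in 1 (median 0.59), where 16.5% of all genes rose and 15.4% fell. Irs2, an adaptor of the insulin receptor, was at 18.1, 9.64 and 12.6 CPM at 1 week and 178, 123 and 137 CPM at 2 weeks (log2 fold change 3.52, SE 0.23, adjusted p = 8.49e-05), an 11.5-fold increase, while its relative Irs1 rose less (0.57, adjusted p = 0.0129). The Kruppel-like factors Klf9 and Klf15, both induced by glucocorticoids, went from 90.6, 55.2 and 50.5 CPM to 228, 195 and 276 CPM (1.85) and from 12.9, 8.42 and 8.22 CPM to 35.5, 21.9 and 44.6 CPM (1.84). Metallothionein, Mt1, had a log2 fold change of 1.65, and the carrier of IGFs Igfbp3 1.43. Foxo3 went from 128, 102 and 97.2 CPM to 170.4, 137 and 223 CPM (0.70, adjusted p = 0.0192, called in 2 of the 6 fits that left out 1 heart and not with the GC trend removed, adjusted p = 0.118), and the muscle ubiquitin ligases Fbxo32 (0.89, adjusted p = 0.0783) and Trim63 (0.19, adjusted p = 0.343) were not called.

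Of 17 clock genes 6 rose and none fell (median 0.38), where 16.5% of all genes rose and 15.4% fell. Per1, a repressor arm of the clock that is also induced by acute signals, was at 18.7, 14.6 and 11.2 CPM at 1 week and 111, 90.4 and 102 CPM at 2 weeks (log2 fold change 2.80, SE 0.18, adjusted p = 6.78e-05), whereas the activator Arntl was at 19.2, 18.6 and 17.3 CPM at 1 week and 21.3, 13.9 and 17.5 CPM at 2 weeks (log2 fold change -0.06, adjusted p = 0.805). Bhlhe40 (1.30), Per2 (0.98) and Nr1d1 (0.86) rose. The time of day at which hearts were taken is not given in the sources used here. Of 35 NRF2 and oxidative stress genes 13 rose and 2 fell (median 0.36). The regulator Nfe2l2, NRF2 itself, went from 84.8, 85.3 and 75.6 CPM to 177, 139.7 and 146 CPM (log2 fold change 0.91, SE 0.12, adjusted p = 0.00118), its targets Nqo1 (0.76) and Gstm1 (1.43) rose, and Hmox1 did not pass the test (-0.08, adjusted p = 0.75).

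The difference between the age change of Lmna-/- hearts and that of WT hearts passed the adjusted test in 7 of 12188 genes (0.0574%), with an unadjusted p under 0.05 in 1087 (8.92%). Of the genes called in Lmna-/- hearts and tested over 12 hearts, 3824 of 3916 (97.7%) had the same sign in WT and 2851 were also called there. The 2 changes correlated across genes at a Pearson coefficient of 0.81, as a description only, since both rest on the same pair of tables. Nr4a2 had the largest difference among the protein-coding genes called. It was at 4.42, 4.14 and 4.11 CPM at 1 week and 41.96, 32.6 and 35.05 CPM at 2 weeks in Lmna-/- hearts, and at 3.75, 7.63 and 3.94 CPM and 2.62, 1.61 and 4.08 CPM in WT hearts. Only the Lmna-/- hearts of 2 weeks stood apart, and the difference was 3.91 on the log2 scale (SE 0.41, adjusted p = 0.00341 in edgeR's test).

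The same form was seen in 2 further inducible genes. Gem, a small GTPase that restrains L-type calcium channels, was at 6.07, 7.24 and 8.37 CPM and 39.4, 32.4 and 30.3 CPM in Lmna-/- hearts against 4.67, 11.9 and 10.1 CPM and 5.09, 4.55 and 6.86 CPM in WT hearts (difference 2.84, adjusted p = 0.0418). Fosl2 was at 236, 231 and 184 CPM in Lmna-/- hearts of 2 weeks and at 56.9, 47.1 and 67.97 CPM in WT hearts of that age (difference 1.98, adjusted p = 0.0418). Errfi1, a feedback inhibitor of EGF receptor signalling, rose in both genotypes, by 0.74 in WT, and more in Lmna-/- hearts (difference 1.11, adjusted p = 0.0418). Ogdhl, a relative of oxoglutarate dehydrogenase, did likewise (WT 0.65, difference 1.74, adjusted p = 0.0418). Some of the largest differences missed the adjusted threshold: Irs2, at 6.77, 41.5 and 9.79 CPM and 16.05, 16.6 and 18.5 CPM in WT hearts, differed by 3.66 (edgeR adjusted p = 0.108), and Atf3 by 4.35 (adjusted p = 0.104). In both genes WT replicate 2 of 1 week was the highest WT heart. Per1 differed by 1.93 (adjusted p = 0.186) and Nr4a1 by 5.02 (adjusted p = 0.195). These calls moved with single hearts. Leaving out 1 of the 12 gave 1 to 38 genes with a higher and 0 to 146 with a lower change, the highest of both without Lmna-/- replicate 1 of 1 week. With the GC trend removed Nr4a2, Gem, Errfi1 and Rmrp remained.

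**Figure D4:**
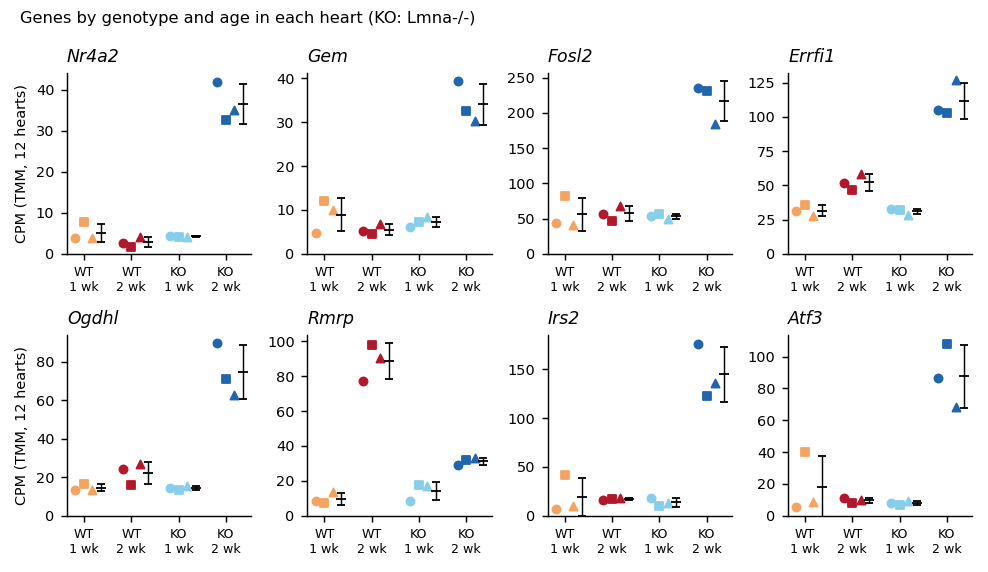
CPM (y axis, from 0) in each of 12 hearts of the genes whose age change differed between genotypes (Nr4a2, Gem, Fosl2, Errfi1, Ogdhl and Rmrp, all called) and of Irs2 and Atf3, which missed the adjusted threshold. Circles, squares and triangles are replicates 1, 2 and 3, and bars are mean ± SD of 3 hearts, ending at 0 where they would reach below it. In 7 of the 8 genes the Lmna-/- (KO) hearts of 2 weeks lie above all others, and in Rmrp the WT hearts of 2 weeks do.

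**Figure D5:**
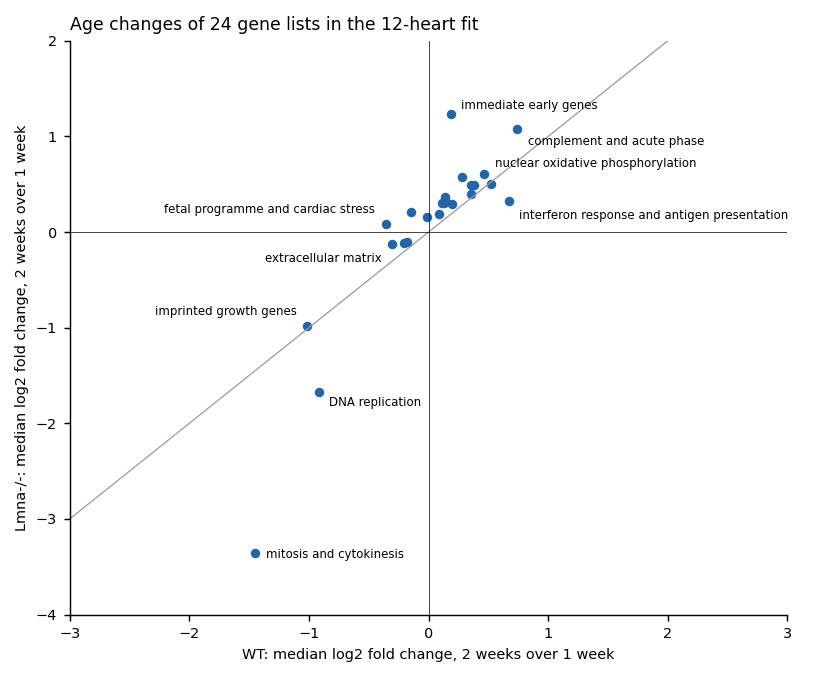
Median log2 fold change between 2 weeks and 1 week of 24 gene lists in WT hearts (x axis) and in Lmna-/- hearts (y axis), both from the fit over 12 hearts, with the line of equal change. Points are lists. Mitosis genes (-1.45 in WT, -3.35 in Lmna-/-) and immediate early genes (0.18 and 1.23) lie farthest from the line. For immediate early genes, WT replicate 2 of 1 week lay above all WT hearts of 2 weeks, and the other WT hearts of 1 week lay below them.

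Macrophage marker transcripts rose. All 8 macrophage markers were up-regulated (median 1.30), where 16.5% of all genes were. Their sum was 148 to 222 CPM at 1 week and 355 to 402 CPM at 2 weeks. C1qa, a chain of the complement component C1q, was at 11.5, 15.7 and 8.52 CPM at 1 week and 59.2, 51.3 and 46.2 CPM at 2 weeks (log2 fold change 2.09, SE 0.21, adjusted p = 0.000511). Csf1r, the receptor that macrophages need to survive, was at 35.7, 44.1 and 25.4 CPM at 1 week and 77.4, 62.2 and 73.3 CPM at 2 weeks (log2 fold change 1.01, SE 0.19, adjusted p = 0.00549), and the lysosomal protein Cd68 (1.61) and the scavenger receptor Cd163 (1.60) rose with them. Lyz2 was called at 0.73 (adjusted p = 0.0358), in 3 of the 6 fits that left out 1 heart. In WT hearts 6 of the 8 rose with a median of 0.63, where 16.8% of all genes rose.

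Complement and acute phase genes rose in 12 of 20 cases, of 31 listed, with none falling (median 1.04). Cebpb, a transcription factor of the acute phase, was at 1.65, 2.89 and 1.32 CPM at 1 week and 16.2, 12.1 and 14.7 CPM at 2 weeks (log2 fold change 2.72, SE 0.29, adjusted p = 0.000581), and its relative Cebpd went from 3.02, 3.98 and 4.55 CPM to 20.9, 20.1 and 24.4 CPM (2.46). The copper carrier ceruloplasmin, Cp, had a log2 fold change of 1.10. C3 was at 71.1, 132 and 64.3 CPM at 1 week and 138, 145 and 141 CPM at 2 weeks, and it did not pass edgeR's test with all hearts (0.64, adjusted p = 0.0715). Replicate 2 of 1 week, which held the most transcripts of other tissues, was its highest 1-week heart. The source of C3 transcripts in that heart was not tested. Interferon and antigen presentation genes had 5 up and 3 down of 31, no larger shares than over all genes (16.5% and 15.4%), and the number up ran from 1 without replicate 1 of 2 weeks to 13 without replicate 2 of 1 week. H2-Ab1 (1.66) and Cd74 (1.13), of class II antigen presentation, rose, and Isg15 fell (-1.85) from 1.65, 4.69 and 2.50 CPM to 0.815, 0.970 and 0.934 CPM.

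Of 23 genes of the integrated and protein-folding stress responses 6 rose and 4 fell, and the number that fell ran from 0 without replicate 3 of 1 week or replicate 1 of 2 weeks to 9 without replicate 1 of 1 week. The shares over all genes were 16.5% up and 15.4% down. Psat1 (-1.61) and Phgdh (-1.49), enzymes of serine synthesis, fell with overlapping ages, and their calls held in 1 and 2 of the fits that left out 1 heart. The amino acid transporter subunit Slc3a2 rose from 24.4, 33.7 and 27.9 CPM to 91.3, 65.4 and 55.1 CPM (1.28). Of 76 cytosolic ribosomal protein genes 9 rose and 18 fell (median -0.09), with 5 to 29 falling when 1 heart was left out, most without replicate 1 of 1 week. Rpl3l, the striated muscle form of Rpl3, was the largest rise of that list, from 12.9, 9.06 and 8.96 CPM to 43.3, 29.5 and 30.3 CPM (log2 fold change 1.78, SE 0.21, adjusted p = 0.000802). Ribosomal protein genes have many near-identical copies, and their counts are uncertain for that reason.

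Among the 8 largest rises named by the rule, 2 genes share sequence with abundant RNAs outside the mRNA pool. Lars2, the mitochondrial leucyl-tRNA synthetase, was at 839, 1654 and 1647 CPM at 1 week and 11647, 21314 and 13511 CPM at 2 weeks (log2 fold change 3.49), and 0.197% of the 31-base stretches of its transcripts also occur in annotated ribosomal RNA transcripts. Gm20594 was at 25.3, 26.9 and 22.9 CPM at 1 week and 224, 214 and 235 CPM at 2 weeks (3.16), and 10% of its stretches occur in transcripts of the mitochondrial genome, whose share of counts rose over the same interval. The part of such reads in their counts was not tested. For 19 other genes examined in the same way, Lmna, Tnni1, Ccnb1, Irs2 and the Nr4a genes among them, no stretch was shared. Art1, a muscle ADP-ribosyltransferase and also among the 8 largest rises, was at 13.5, 6.17 and 2.06 CPM at 1 week and 73.1, 61.6 and 68.9 CPM at 2 weeks (log2 fold change 3.39, SE 0.43, adjusted p = 0.00108), with 3.20 in WT.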

How the data were processed

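Total RNA was extracted from entire hearts and depleted of ribosomal RNA for stranded paired-end libraries. The authors aligned reads with STAR (version 2.3.1d in the submitters' processing notes, mm10) and deposited raw counts of read pairs per gene model, 1 table for each age. The published methods name another version of STAR. Every column matched a sample title. The 1-week and 2-week tables were joined by Ensembl ID, and 46574 of 47069 IDs matched GENCODE M21 (GRCm38), which gave names, biotypes, lengths and GC content. The 37 genes of the mitochondrial genome and 6660 processed pseudogenes were left out before normalization.

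Genes with more than 5 counts in each heart were tested with edgeR 4.0.16 in R 4.3.3 (TMM factors, glmQLFit and glmQLFTest, Benjamini-Hochberg adjustment over all genes tested). Lmna-/- hearts were fitted alone, and a fit over 12 hearts gave the WT change and the interaction of genotype and age. DESeq2 1.42.0 was an alternative, as were other scalings, filters, thresholds, a GC trend removed (loess over GC content, span 0.3), a replicate block and leaving out each heart. The statistical scripts were tested on simulated data with known changes. In these edgeR's fit of Lmna-/- hearts recovered 77.1% of 2-fold changes and its interaction test 58.2%. A simulated GC trend gave 1015 false calls in the fit without correction and 11 with the trend removed. The size of that trend was set by hand and not matched to these hearts, so 1015 does not estimate their false calls. In the Lmna-/- hearts log2 fold changes ran with GC content at a Spearman coefficient of 0.31. A count of 0 allows up to 3 counts, 0.861 CPM in the shallowest and 0.210 CPM in the deepest Lmna-/- library by library size alone, a limit for counting error only.

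Named genes were Lmna, the 8 largest rises and 8 largest falls among called protein-coding genes without overlap and with a mean of at least 5 CPM, the genes called in the interaction, and key or largest called members of the gene lists. Rmrp, Gm24187, Atp5e, Atp5j and Ndufb2 were named after their values were seen. The gene lists and comparisons were chosen with earlier results of these data known. Replicates of 1 age differed by more than counting noise (chi-square over degrees of freedom 6.93 to 21.7), and no 2 libraries were counted as 1. The labels do not say whether the hearts of a group shared a litter, so that p-values measure the spread between these hearts. Read placement and counting on near-identical copies were the authors' and were not rerun.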

Additional observations from a re-analysis of the deposited data

Results flagged for a closer look

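The change from 1 to 2 weeks differed between Lmna-/- and WT hearts, by the edgeR interaction test over 12 hearts, in 7 genes (3 hearts in each group). All values are differences of log2 fold changes, Lmna-/- minus WT. Nr4a2 (chr2:57106830-57124003, GRCm38) differed by 3.91 (SE 0.41, adjusted p = 0.00341), Gem (chr4:11704457-11714752) by 2.84 (SE 0.41), Fosl2 (chr5:32135801-32157842) by 1.98 (SE 0.31), Ogdhl (chr14:32322019-32348151) by 1.74 (SE 0.26) and Errfi1 (chr4:150853919-150868892) by 1.11 (SE 0.17), the last 4 each with adjusted p = 0.0418.

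The other 2 genes are small RNAs. Rmrp (chr4:43492788-43493058), the RNA of the endoribonuclease RNase MRP, was at 8.28, 17.3 and 16.7 CPM at 1 week and 29.05, 32.2 and 32.8 CPM at 2 weeks in Lmna-/- hearts. In WT hearts it went from 8.60, 7.08 and 13.4 CPM to 77.5, 97.7 and 90.5 CPM, a larger rise than in Lmna-/- hearts and a difference of -2.13 (SE 0.32, adjusted p = 0.0418). Gm24187 (chr13:9834469-9834525), annotated as a miRNA, was at 98.5, 81.9 and 75.2 CPM and 134, 237 and 137 CPM in Lmna-/- hearts and at 56.3, 85.5 and 73.9 CPM and 25.00, 19.5 and 5.55 CPM in WT hearts, a difference of 3.11 (SE 0.49, adjusted p = 0.0418). Every Lmna-/- heart was higher, and every WT heart lower, at 2 weeks than any heart of the same genotype at 1 week. With the GC trend removed, the change in Lmna-/- hearts alone was not called for Rmrp (adjusted p = 0.0532) or Gm24187 (adjusted p = 0.606), and the differences of Gm24187 (adjusted p = 0.0511), Ogdhl (0.0511) and Fosl2 (0.057) did not pass.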

How the results depend on the processing

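In Lmna-/- hearts 2056 genes were up and 1915 down between ages. Library size alone gave 1201 and 3670, and a 2-fold minimum left 559 and 615. Leaving out 1 heart gave 1208 to 2555 up and 1016 to 2458 down. DESeq2, other scalings, filters, robust spread, protein-coding genes alone (an alternative chosen after seeing the data) and the fit over 12 hearts kept both counts within 1.5 times. In WT hearts, leaving out 1 heart gave 1534 to 1953 genes up and 1408 to 1865 down. Lists of Lmna-/- hearts given without such ranges moved too. Members up ran from 42 to 59 in oxidative phosphorylation, 14 to 21 in immediate early genes and 11 to 21 in insulin, IGF and FOXO signalling. They ran from 11 to 18 in NRF2 genes, 5 to 9 in clock genes and 11 to 17 in complement genes. Macrophage markers had 6 to 8 up, the tricarboxylic acid cycle 9 to 12 and mitochondrial biogenesis 4 to 9.

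The genotype by age interaction, 6 genes higher and 1 lower, moved with most choices. DESeq2 gave 45 and 39, no filter on counts 69 and 125, the GC trend removed 3 higher, and a replicate block 0 and 0. No gene was lower with library size alone (0) or robust spread (0), and 2 were lower at adjusted p under 0.1. Leaving out 1 heart gave 1 to 38 higher and 0 to 146 lower. The causes were not tested.

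The labels do not say whether replicate numbers pair hearts. Same-numbered Lmna-/- hearts of 1 and 2 weeks had deviations correlated at 0.30, 0.27 and -0.24. Of the 1-week hearts replicates 1 and 2, but not 3, correlated best with their own number. The block gave 2150 genes up and 1886 down in Lmna-/- hearts. In the fit over all hearts the block joined Lmna-/- and WT hearts of the same age and number. The correlations above do not address that pairing. The 0 interaction calls with that block compare with 7 calls in edgeR's fit without it, where 1087 genes had an unadjusted p under 0.05. DESeq2 without the block gave 45 and 39 calls.

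Of 2999 values of named genes recomputed under an alternative, 20 changed sign, none of them in a called gene. With library size alone these were Cox7a2 (-0.18), Lmna (-0.038), Nppa (-0.019) and Trim63 (-0.027). With the GC trend removed these were Arntl (0.015), Cdkn1c (-0.090) and Lmna (-0.077). With the block it was Nppa (-0.017). Over the fits without 1 heart the log2 fold change ran as follows, in Lmna from -0.068 to 0.70, Nppa from -0.32 to 1.08, Acta1 from -1.18 to 0.53, Slc2a1 from -0.68 to 0.20, Ucp3 from -0.013 to 1.14, Egr1 from -0.076 to 1.38, Arntl from -0.23 to 0.082, Cox7a2 from -0.018 to 0.10 and Myl4 from -0.035 to 1.36.

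Of 135 named genes called, 26 lost their call without at least 1 heart. Actc1 lost it without any of the 6. Without replicate 2 of 1 week it ended for Cox8a, Eln, Fos, Foxo3, Lbr, Mcm2, Ndufb2, Phgdh, Psat1 and Tnc. Without replicate 3 of 1 week it ended for Atp5j, Eln, Fos, Foxo3, Lbr, Lyz2, Mcm2, Ndufb2, Phgdh and Psat1. Without replicate 1 of 2 weeks it ended for Ccne1, Cd74, Col1a1, Cox8a, Eln, Etfdh, Fhl2, Fos, Foxo3, H19, Isg15, Lbr, Lox, Lyz2, Mcm2, Ndufb2, Phgdh, Pkm, Postn, Psat1, Rian, Tnc and Tnnt2. Without replicate 2 of 2 weeks it ended for Atp5j, Cd74, Col1a1, Cox8a, Eln, Fos, Lbr, Lox, Ndufb2, Phgdh, Pkm, Psat1 and Tnc. Without replicate 3 of 2 weeks it ended for Atp5j, Ccne1, Cd74, Col1a1, Eln, Fos, Foxo3, Irs1, Lbr, Lyz2, Mcm2, Ndufb2, Postn, Psat1, Rian and Tnc. With library size alone it ended for Actc1, Cd74, Cox8a, Fhl2, Fos, Foxo3, Irs1, Lyz2 and Pkm, with DESeq2 for Fos and Ndufb2, and with no filter on counts and with the block for Ndufb2.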
